A study of Canis lupus familiaris with 6 samples.

Results

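The genes described here encode proteins that carry a cell through mitosis, build and orient the spindle, and divide the cytoplasm. A fixed list of 50 gene symbols was used, and a gene was measured where at least 1 probe set of the canine array carried its symbol and no other. This gave 43 genes on 88 probe sets, of 15115 named genes and 42924 probe sets in all. The remaining 7 genes (CCNB1, BUB1, MAD2L1, CENPE, MKI67, CIT and CKS2) were not analysed here.

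The samples were MDCKII cells, an established dog kidney epithelial line (Madin-Darby canine kidney, strain II) with no genetic change named in the labels, harvested 36 h after plating in MEM on 60 mm dishes. In the 2D group (3 arrays) the cells grew as a flat polarized monolayer on the dish without matrix. In the 3D group (3 arrays) they were plated on a thin layer of 100 µl Matrigel, a basement membrane extract, under medium with 2% Matrigel, where they form hollow cysts. The design asked which genes are higher while cysts and their lumens form. The labels call the replicates biological but name no separate cultures, so that p-values measure the spread between these samples, which may be partly technical.

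Entry into mitosis depends on cyclin A and cyclin B partnered with the kinase CDK1. Kinetochores then attach chromosomes to the spindle, a checkpoint holds the cell until all are attached, and the anaphase-promoting complex releases the sister chromatids. The spindle midzone and a contractile ring containing anillin complete the division. In MDCK cysts the cortical proteins LGN (gene GPSM2) and NuMA (gene NUMA1) are known for turning the spindle so that daughter cells stay in the wall around the lumen. Most transcripts of these genes peak in G2 and M phase, so that in bulk RNA a smaller share of dividing cells and less RNA per dividing cell cannot be told apart.

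The arrays of replicates 2 and 3 lie on 1 log2 scale, with medians over all probe sets of 7.06 to 7.08. The replicate 1 arrays lie on another, with medians of 5.42 (2D) and 5.26 (3D) and values below 0. Differences were therefore tested on replicates 2 and 3 (2 arrays of each culture), and the difference between the replicate 1 arrays (1 of each culture) is given beside them without a test. Pearson's r across probe sets, which are not independent replicates, was 0.997 between the 2D arrays and 0.994 between the 3D arrays of replicates 2 and 3. For pairs with a replicate 1 array it was 0.861 to 0.888. The 3' minus 5' difference of the actin controls was 2.17 (2D) and 2.90 (3D) in replicate 1, against 0.57 to 0.89 on the other arrays. For the GAPDH controls it was 1.67 and 1.47, against 0.16 to 0.40. Whether RNA quality or processing lies behind these values was not tested, which limits what replicate 1 can show. Of 13 kidney epithelial markers 11 were measured, with medians of 10.5 to 10.8 on the arrays of replicates 2 and 3, and EPCAM stood at 13.5 to 13.8. The 8 fibroblast markers had medians of 6.29 to 6.33 on those arrays, below the array median, with 2 or 3 of them below the lower quartile. Medians of 5 endothelial markers ran from 6.31 to 6.59 and of 5 leukocyte markers from 6.40 to 6.58 over these arrays, also below the array medians. The highest of each, CDH5 (8.34 to 8.47) and CD14 (7.82 to 8.32), lay above the array medians. No marker of the 4 lists passed the test. In all 6 arrays, 0 of the 43 genes lay below the lower quartile of the array at the brightest probe set, the one with the highest mean over all 6 arrays, which stands for a gene below.

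Most mitosis genes differed little between the cultures, and 1 of 43 passed the test. ANLN, which encodes anillin, the scaffold of the contractile ring, fell 1.80-fold in 3D. None rose, and 42 did not pass. Over all named genes 3.09% passed as lower and 4.20% as higher (limma, adjusted p under 0.05), so a count of 1 in 43 is no more than the share among all genes. The median log2 difference of the 43 genes was -0.15, against -0.01 over all named genes. It stayed below 0 when any 1 array was left out, at -0.10 without 3D replicate 2 and -0.14 to -0.17 without one of the others. The difference was below 0 for 29 of 43 genes, where 51.1% of all named genes were below 0, and for 25 of 43 without 3D replicate 2.

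**Figure D1:**
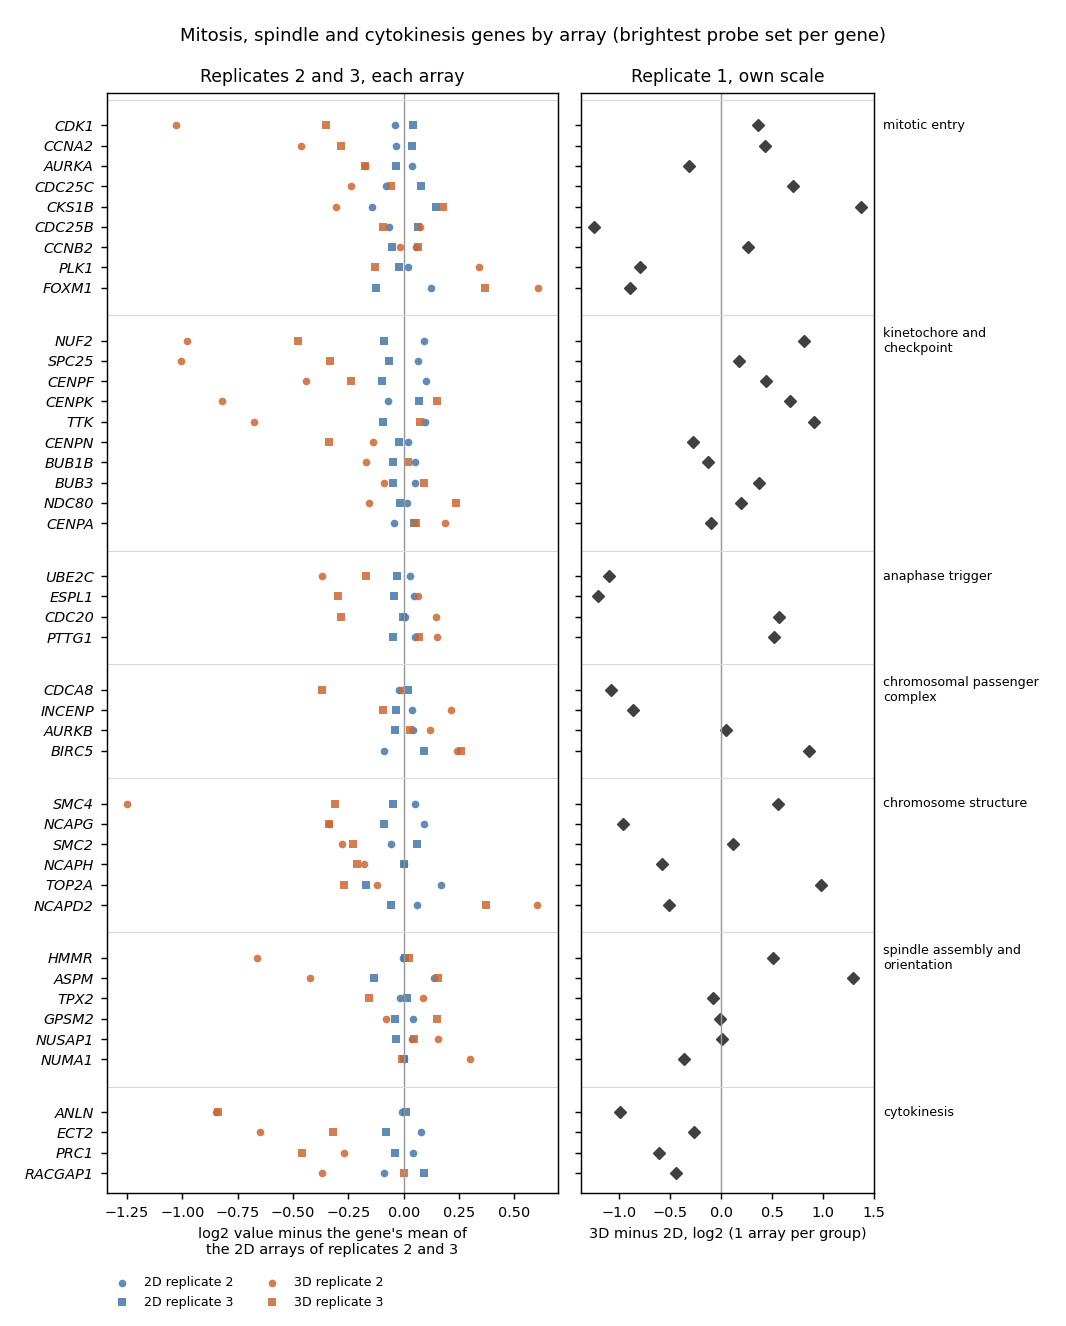
Log2 values of the 43 measured genes at the brightest probe set, by role. Left: each array of replicates 2 and 3 minus the gene's mean of its 2D arrays (circles replicate 2, squares replicate 3, blue 2D, orange 3D). Right: the 3D minus 2D difference of replicate 1 on its own scale. The 3D points of ANLN lie together at about -0.84 and -0.85, while for SMC4 and CENPK the 3D arrays lie 0.94 and 0.97 apart.

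At an unadjusted limma p under 0.05, 11 of the 43 genes were lower and 2 were higher in 3D, where 12.6% and 12.7% of all named genes were. Both 3D arrays lay below both 2D arrays for 15 of the 43 genes and above them for 6, against 27.4% and 25.8% of all named genes. Of the 15, 8 were also lower in replicate 1 at the brightest probe set (AURKA, CENPN, UBE2C, NCAPG, NCAPH, ANLN, ECT2 and PRC1), and of the 6, 3 were also higher there (PTTG1, BIRC5 and NUSAP1). Among all named genes 17.2% and 15.2% met these stricter conditions. In replicate 1 PTTG1 differed by 0.52, BIRC5 by 0.86 and NUSAP1 by only 0.01. The second probe set of BIRC5 gave -0.17 there, and the other NUSAP1 probe sets ran from -2.44 to 0.14. Some other probe sets of CENPN, UBE2C and PRC1 were likewise higher in 3D in replicate 1, against the brightest. The standard errors of the 43 differences ran from 0.0966 to 0.298 with a median of 0.122. At that median, a log2 difference of 0.57, or 1.48-fold, was needed to pass. For 37 of 43 genes the 95% interval of the difference lay within 1 log2 unit of 0. For 5 genes that did not pass it reached past a 2-fold fall, and for 0 it reached a 2-fold rise.

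**Figure D2:**
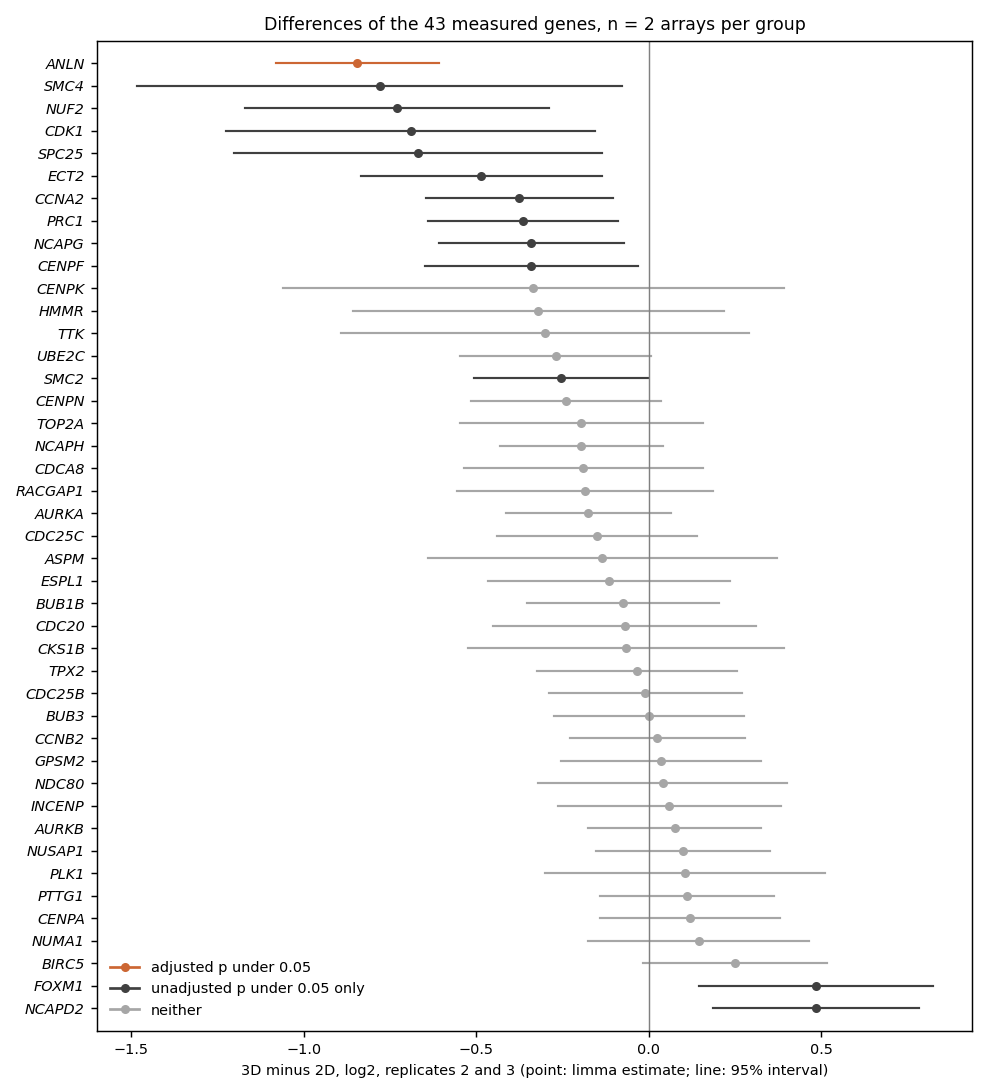
3D minus 2D differences (log2) of the 43 measured genes on replicates 2 and 3, in order of size. Points are limma estimates and lines 95% intervals (n = 2 arrays per group). ANLN passed after adjustment and 12 genes had only an unadjusted p under 0.05. The interval of SMC4 (-1.48 to -0.08) is much wider than that of ANLN (-1.08 to -0.61).

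The cytokinesis genes had the lowest median of the 7 role groups, at -0.43. All 4 measured members were below 0 on replicates 2 and 3, and at the brightest probe set all 4 were lower in replicate 1 as well, although the 4 probe sets of PRC1 went both ways there. ANLN was at 9.01 and 9.03 on the 2D arrays and at 8.17 and 8.18 on the 3D arrays of replicates 2 and 3. The 3D arrays were thus lower without overlap, and the arrays of each culture agreed closely. The difference was -0.85 (SE 0.0966, the lowest of the 43 genes, n = 2 arrays in each culture, limma adjusted p = 0.0129), with a 95% interval of -1.08 to -0.61. In replicate 1 ANLN was at 7.73 in 2D and 6.74 in 3D, a difference of -0.99 on that scale, so that it was lower in 3D on both scales. Its second probe set had 7.49 and 7.53 in 2D, and 6.91 and 7.33 in 3D, again without overlap. That probe set did not pass (-0.39, SE 0.155, limma adjusted p = 0.201) and was 0.71 lower in 3D in replicate 1. As the mean of both probe sets ANLN passed, at -0.62 (limma adjusted p = 0.0274). The call, like every call over all probe sets, was lost when any 1 of the 4 arrays was left out, with an adjusted p of 0.0921 (without 3D replicate 3) to 0.421 (without 2D replicate 3), although the difference stayed between -0.84 and -0.86. It was also lost when all 6 arrays were fitted together, at -0.89 (limma adjusted p = 1).

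**Figure D3:**
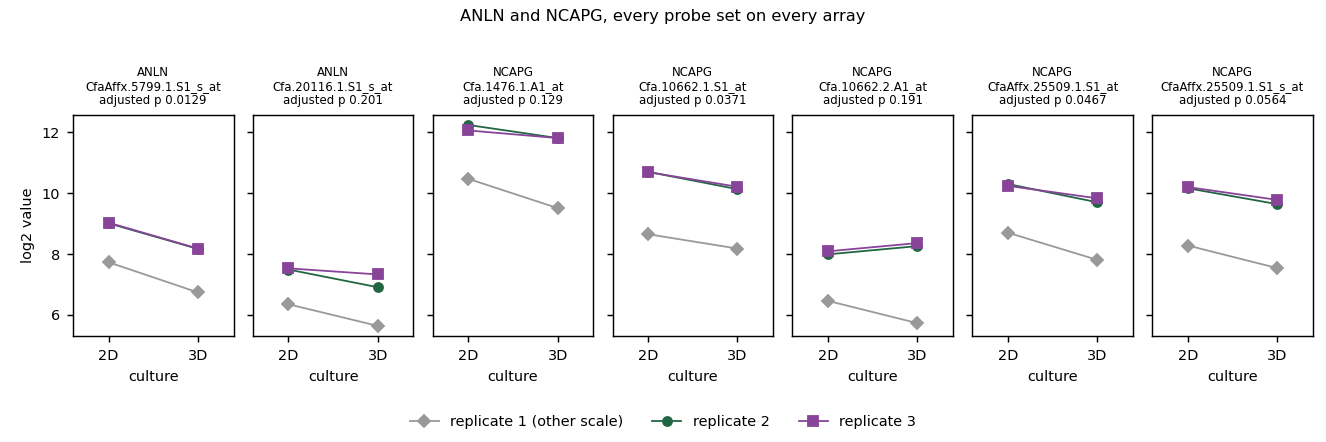
Log2 values of the 2 probe sets of ANLN and the 5 probe sets of NCAPG in 2D and 3D culture on every array, with the limma adjusted p of replicates 2 and 3 above each panel. Lines join arrays with the same replicate number, and replicate 1 (grey) is on another scale. In replicates 2 and 3 both ANLN probe sets and 4 of the 5 NCAPG probe sets run down from 2D to 3D, and 1 NCAPG probe set runs up.

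ECT2, the exchange factor that switches on the GTPase RHOA at the cell equator, was at 11.22 and 11.06 in 2D and at 10.49 and 10.82 in 3D. The 3D arrays lay lower without overlap, but the difference did not pass (-0.48, SE 0.143, limma adjusted p = 0.106), and in replicate 1 it was -0.27. PRC1, which bundles the microtubules of the spindle midzone, was at 10.13 and 10.05 in 2D and at 9.82 and 9.63 in 3D. Here too the groups did not overlap, and the difference did not pass (-0.37, SE 0.113, limma adjusted p = 0.118). The other 3 probe sets of PRC1 were at -0.27, -0.23 and -0.20 on replicates 2 and 3. In replicate 1 its 4 probe sets spread from -1.10 to 2.40, so that no direction can be read for it there. RACGAP1, a subunit of the centralspindlin complex and a partner of ECT2, overlapped between the cultures. It was at 10.72 and 10.90 in 2D and at 10.44 and 10.81 in 3D.

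Among the 9 measured genes of mitotic entry the median was -0.07 and none passed in either direction. At an unadjusted limma p under 0.05, 2 were lower and 1 higher, against 12.6% and 12.7% of all named genes. CDK1, the kinase that drives mitosis, was at 11.86 and 11.94 in 2D and at 10.87 and 11.55 in 3D. Both 3D arrays were lower, replicate 2 far more so than replicate 3, and the difference of -0.69 did not pass (SE 0.219, limma adjusted p = 0.125). Its other probe sets were at -0.27, with overlap, and -0.89, without overlap, and its replicate 1 difference was 0.36. CCNA2, the cyclin of S phase and early mitosis, was at 11.27 and 11.34 in 2D and at 10.84 and 11.02 in 3D, without overlap (-0.38, SE 0.111, limma adjusted p = 0.107). In replicate 1 it differed by 0.43, the other way. CCNB2, a B-type cyclin, overlapped between the cultures at the brightest probe set (0.03, 95% interval -0.23 to 0.28), as did CDC25B, CDC25C, CKS1B and PLK1. The second CCNB2 probe set was lower in 3D without overlap and did not pass (-0.095, limma adjusted p = 0.646).

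FOXM1, the transcription factor that drives G2 and M phase genes, stood opposite to these genes. It was at 9.62 and 9.37 in 2D and at 10.10 and 9.86 in 3D, and its second probe set at 7.41 and 7.41 in 2D against 7.72 and 7.58 in 3D. Both probe sets were higher in 3D without overlap, and neither passed (0.49, SE 0.139, limma adjusted p = 0.0990, and 0.24, limma adjusted p = 0.238). In replicate 1 they differed by -0.90 and -0.99. AURKA, a centrosomal kinase, gave -0.18 on each of its 2 probe sets, and neither passed (limma adjusted p = 0.357 and 0.365).

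For the kinetochore and checkpoint genes the median was -0.27. None of 10 passed. At an unadjusted limma p under 0.05, 3 were lower and 0 higher, against 12.6% and 12.7% of all named genes. NUF2, a subunit of the NDC80 complex that grips microtubules, was at 10.54 and 10.36 in 2D and at 9.47 and 9.97 in 3D. It was lower in both 3D arrays and came nearest to passing of the 42 other genes (-0.73, SE 0.181, limma adjusted p = 0.0713), with -0.71 on its second probe set. SPC25, another subunit of that complex, was at 11.39 and 11.26 in 2D and at 10.32 and 10.99 in 3D (-0.67, SE 0.218, limma adjusted p = 0.133). NDC80, which gives the complex its name, overlapped, with 11.50 and 11.47 in 2D and 11.33 and 11.72 in 3D. The groups were thus apart for NUF2 and SPC25 and overlapped for NDC80, and whether these subunits differ from each other was not tested. In replicate 1 all 3 were higher in 3D, by 0.81 (NUF2), 0.17 (SPC25) and 0.19 (NDC80).

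CENPF, a large kinetochore protein of G2 and M phase, was at 9.62 and 9.42 in 2D and at 9.08 and 9.28 in 3D. At this brightest probe set its groups did not overlap, yet the difference of -0.34 did not pass (SE 0.126, limma adjusted p = 0.176), and in replicate 1 it was 0.44. Its second probe set overlapped, at 8.33 and 8.08 in 2D and at 7.86 and 8.31 in 3D (-0.12, limma adjusted p = 0.760). At the other end of the group, CENPA, the histone variant that marks centromeres, was at 9.52 and 9.61 in 2D and at 9.75 and 9.62 in 3D (0.12, SE 0.107, limma adjusted p = 0.579). Its second probe set went the other way without overlap, at 9.48 and 9.56 in 2D and at 9.38 and 9.46 in 3D (-0.10, limma adjusted p = 0.637). The checkpoint genes BUB1B and BUB3 differed by -0.07 and 0.00 at the brightest probe set, each with overlapping groups. Other BUB3 probe sets were at -0.08 with overlap, and at -0.165 and -0.245 with 3D lower without overlap. None of these passed. CENPN, which reads CENPA nucleosomes, had 4 probe sets that ran from -0.53 to 0.34, none of which passed.

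The 4 genes of the anaphase trigger overlapped or differed slightly, with 0 passing and 0 at an unadjusted limma p under 0.05 in either direction. UBE2C, the ubiquitin-conjugating enzyme of the anaphase-promoting complex, was lowest, at 8.30 and 8.24 in 2D and 7.90 and 8.10 in 3D (-0.27, SE 0.114, limma adjusted p = 0.224). PTTG1, which encodes securin, the inhibitor of separase, was highest, at 12.45 and 12.35 in 2D and 12.55 and 12.47 in 3D (0.11, SE 0.103, limma adjusted p = 0.603). CDC20, the activator of the complex, was at 11.82 and 11.81 in 2D and at 11.96 and 11.53 in 3D, an overlap in which the 2D arrays lay between the 3D arrays. ESPL1, which encodes separase, gave -0.12, also with overlap.

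The chromosomal passenger complex, the AURKB kinase with its 3 partners, had a median of 0.07, and 0 of its 4 genes passed or had an unadjusted limma p under 0.05. BIRC5, which encodes survivin, was at 10.86 and 11.04 in 2D and at 11.19 and 11.21 in 3D (0.25, SE 0.110, limma adjusted p = 0.241). The brightest probe set was higher in 3D without overlap, whereas its second probe set gave -0.01. CDCA8, which encodes borealin, was at 8.85 and 8.89 in 2D and at 8.86 and 8.50 in 3D (-0.19, SE 0.142, limma adjusted p = 0.497). AURKB gave 0.08 with a 95% interval of -0.17 to 0.32. INCENP, the scaffold of the complex, had 5 probe sets from -0.24 to 0.13 on replicates 2 and 3.

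Among the 6 measured genes of chromosome structure the median was -0.23, with 0 passing at the brightest probe set. At an unadjusted limma p under 0.05, 3 were lower and 1 higher, against 12.6% and 12.7% of all named genes. NCAPG encodes a subunit of condensin I, the ring complex that compacts chromosomes. At its brightest probe set it was at 12.24 and 12.06 in 2D and at 11.81 and 11.81 in 3D, lower without overlap (-0.34, SE 0.109, limma adjusted p = 0.129). At 2 of its 4 other probe sets it fell. One was at 10.70 and 10.69 in 2D and at 10.13 and 10.21 in 3D (-0.53, SE 0.0991, limma adjusted p = 0.0371). The other was at 10.30 and 10.24 in 2D and at 9.70 and 9.83 in 3D (-0.51, SE 0.105, limma adjusted p = 0.0467). Another was at -0.47 (limma adjusted p = 0.0564), and the fifth, at 7.99 and 8.09 in 2D against 8.26 and 8.36 in 3D, went the other way (0.27, limma adjusted p = 0.191). All 5 were lower in 3D in replicate 1, by 0.47 to 0.96. With ANLN, 3 of the 88 probe sets of the 43 genes passed as lower and 0 as higher, where 2.96% and 3.65% of all probe sets did.

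The other condensin genes did not pass. SMC4, a core ATPase of both condensins, was at 11.81 and 11.71 in 2D and at 10.51 and 11.45 in 3D (-0.78, SE 0.288, limma adjusted p = 0.174), and 0.56 higher in 3D in replicate 1. Its large estimate rests mainly on 3D replicate 2. SMC2, the other ATPase, was at 5.91 and 6.03 in 2D and at 5.69 and 5.74 in 3D (-0.26, SE 0.103, limma adjusted p = 0.208). Its 3D values lay close to the lower quartiles of those arrays (5.64 and 5.67), so that the size of its difference is uncertain. The second SMC2 probe set gave -0.195 and, at 5.47, lay below the lower quartile on 3D replicate 2. NCAPD2 stood opposite, at 11.78 and 11.66 in 2D and at 12.32 and 12.09 in 3D (0.49, SE 0.122, limma adjusted p = 0.0740). Its other probe sets were at 0.13 and 0.03, and in replicate 1 the brightest was at -0.51. NCAPH gave -0.20, with 3D lower without overlap. TOP2A, the topoisomerase that untangles sister chromatids, gave -0.20 on its brightest probe set, with overlap, and -0.44 on the other (limma adjusted p = 0.0664).

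The genes of spindle assembly and orientation had a median of 0.00, and 0 of 6 passed or had an unadjusted limma p under 0.05. GPSM2 was at 11.49 and 11.41 in 2D and at 11.37 and 11.60 in 3D, and 9.23 and 9.22 in replicate 1. The cultures overlapped, with a difference of 0.04 and a 95% interval of -0.26 to 0.33 (limma adjusted p = 0.910). Its second probe set was at 10.62 and 10.56 in 2D and at 10.24 and 10.36 in 3D, lower without overlap, and did not pass (-0.29, SE 0.104, limma adjusted p = 0.163). NUMA1 was at 8.34 and 8.34 in 2D and at 8.64 and 8.33 in 3D (0.15, 95% interval -0.18 to 0.47, limma adjusted p = 0.588). In replicate 1 it differed by -0.37. For both genes the interval at the brightest probe set lay within a 2-fold change either way. HMMR, a spindle-associated protein, was at 8.78 and 8.79 in 2D and at 8.12 and 8.81 in 3D, so that only 3D replicate 2 was low (-0.32, SE 0.220, limma adjusted p = 0.458). TPX2, which activates AURKA on the spindle, and NUSAP1, which bundles spindle microtubules, gave -0.03 and 0.10.

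Some of the mitosis genes were lower on 3D replicate 2 than on 3D replicate 3. For 8 of the 43 genes 3D replicate 2 lay below 3D replicate 3 by 0.5 or more on the log2 scale, and for 0 it lay above by as much. Among all named genes 3.22% lay below by as much, and 461 of 15115 lay above by as much. These 8 were CENPK (by 0.97), SMC4 (0.94), TTK (0.75), HMMR (0.69), CDK1 (0.68), SPC25 (0.67), ASPM (0.58) and NUF2 (0.50). They were picked for this gap, which is therefore a description. TTK, the checkpoint kinase, was at 10.28 and 10.09 in 2D and at 9.51 and 10.26 in 3D. CENPK, a constitutive centromere protein, was at 8.69 and 8.83 in 2D and at 7.94 and 8.91 in 3D. ASPM, a spindle pole protein, was at 10 and 9.73 in 2D and at 9.44 and 10.02 in 3D. For CENPK, ASPM and HMMR 3D replicate 3 lay above both 2D arrays, and for TTK it lay between them. For CDK1, SPC25, NUF2 and SMC4 it lay below both at the brightest probe set. Without 3D replicate 2 the differences there were -0.35, -0.33, -0.48 and -0.31. At another CDK1 probe set 3D replicate 3 (11.67) lay above both 2D arrays (11.41 and 11.57). At the second SMC4 probe set it (11.17) lay between them (11.27 and 11.08). The remaining CDK1 probe set and the second of NUF2 were lower on both 3D arrays.

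**Figure D4:**
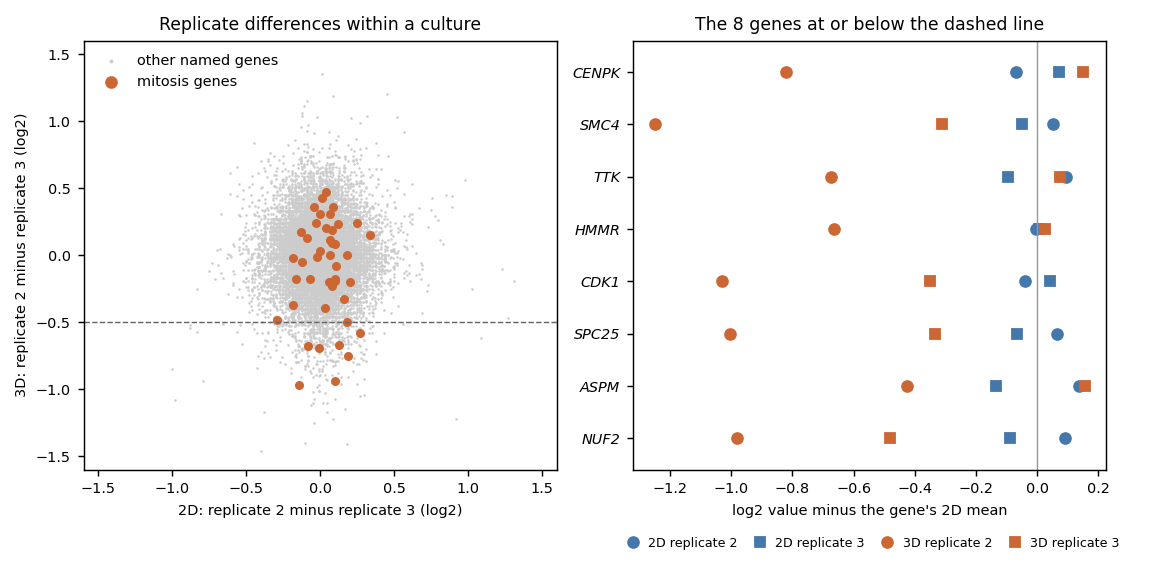
Left: replicate 2 minus replicate 3 (log2) in 2D and in 3D for the 43 mitosis genes (orange) and the other named genes (grey; 4 genes fall outside the axes), with a dashed line at -0.5. Right: the 4 array values of the 8 genes at or below that line, relative to the gene's 2D mean. In each of the 8 rows 3D replicate 2 is the lowest of the 4 arrays.

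In the 2D cultures 0 of the 43 genes had such a gap between replicates 2 and 3 in either direction. Of all named genes 0.490% lay below by as much, and 88 of 15115 above. Not all mitosis genes shared the low values of 3D replicate 2. PLK1, the polo-like kinase, was 0.47 higher there than in 3D replicate 3, CDC20 0.43, and ESPL1 and CDCA8 0.36 each. The poly-A spike-in controls, RNAs added in a fixed amount before labelling, had a mean of 9.91 on 3D replicate 2, against 9.06 on 3D replicate 3 and 8.90 and 8.93 on the 2D arrays. Their part in the low values was not tested. In replicate 1 the spike-in mean was 8.64 in 3D and 7.74 in 2D, and all 8 genes were higher in 3D there, by 0.17 (SPC25) to 1.29 (ASPM).

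In replicate 1 21 of the 43 genes were lower and 22 higher in 3D as deposited, with a median of 0.01, against -0.11 over all named genes. The replicate 1 arrays differ in their overall medians (5.42 and 5.26), and with each array centred on its median the median of the 43 genes was 0.17. At least 2-fold lower were 4 of 43, namely CDC25B (-1.25), ESPL1 (-1.21), UBE2C (-1.10) and CDCA8 (-1.08), where 17.3% of all named genes were. CKS1B, a small subunit of cyclin-dependent kinases (1.37), and ASPM (1.29) were at least 2-fold higher, where 12.4% of all named genes were. The 2 other CKS1B probe sets were at 1.61 each. For UBE2C the other probe sets went the other way, at 0.23 and 0.25, so that no direction can be read for it there. The sign was that of replicates 2 and 3 for 20 of the 43 genes, against 55.7% of all named genes. Among the 26 genes with 2 or more probe sets, the differences of a gene's own probe sets spanned a median of 0.52 in replicate 1 and 0.25 on replicates 2 and 3. On replicates 2 and 3 the probe sets shared 1 sign for 15 of these 26 genes.

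Other genes of mitosis were also mostly without a call. Of 59 measured genes in a further list of kinetochore, spindle and chromosome genes, 3 fell and 0 rose, with a median of -0.18, against 3.09% and 4.20% of all named genes. At an unadjusted limma p under 0.05, 15 were lower and 1 was higher, against 12.6% and 12.7% of all named genes. TRIP13, the ATPase that recycles checkpoint proteins, was at 10.97 and 11.05 in 2D and at 10.31 and 10.36 in 3D (-0.68, SE 0.10, limma adjusted p = 0.0208), and 1.08 lower in replicate 1. ZWILCH (-0.75, limma adjusted p = 0.0308) and ZW10 (-0.47, limma adjusted p = 0.0478) also fell, both subunits of the RZZ complex that holds the checkpoint at kinetochores. The second probe set of ZW10 fell as well (-0.63). In replicate 1 ZW10 gave -0.15 and ZWILCH 0.15. In this list, 8 of 59 genes lay 0.5 or more lower on 3D replicate 2 than on 3D replicate 3, and 2 lay as much higher. Of all named genes 3.22% lay as much lower and 461 of 15115 as much higher.

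Among 29 genes of the anaphase-promoting complex and cohesin, 2 fell and 0 rose, against 3.09% and 4.20% of all named genes, with a median of -0.16. At an unadjusted limma p under 0.05, 7 were lower and 3 higher, against 12.6% and 12.7%. UBE2S, the enzyme that lengthens ubiquitin chains on the targets of the complex, was at 12.13 and 12.29 in 2D and at 11.36 and 11.25 in 3D (-0.91, SE 0.111, limma adjusted p = 0.0141). Its second probe set also fell (-1.08, limma adjusted p = 0.0113), and in replicate 1 the 2 probe sets gave -0.34 and 0.04. ANAPC7, a structural subunit, fell by 0.54 (limma adjusted p = 0.0351) and was 0.49 lower in replicate 1. UBE2C, which starts the chains that UBE2S extends, did not pass, as given above.

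Of 30 measured genes of the contractile ring, the septins and abscission, 3 fell and 2 rose, with a median of -0.16, against 3.09% and 4.20% of all named genes. At an unadjusted limma p under 0.05, 9 were lower and 4 higher, against 12.6% and 12.7%. CEP55, which recruits the abscission machinery to the midbody, was at 10.05 and 10.02 in 2D and at 9.07 and 9.41 in 3D (-0.80, SE 0.137, limma adjusted p = 0.0305), but 0.31 higher in replicate 1. The ESCRT-III genes, whose products cut the last bridge between daughter cells, went both ways. CHMP2A rose on both probe sets (0.91 and 0.86, limma adjusted p = 0.0112 and 0.0169), with 11.40 and 11.38 in 2D and 12.30 and 12.29 in 3D at the brighter, and was 1.01 and 1.09 higher in replicate 1. For CHMP4B 1 of 2 probe sets rose (0.82, limma adjusted p = 0.0193, -0.32 in replicate 1), and the other was at -0.24. For CHMP2B, 1 of 2 probe sets fell (-0.60, limma adjusted p = 0.0444). ROCK2, a kinase that activates myosin, fell by 0.91 (limma adjusted p = 0.0175). In 3D it averaged 4.90, under the lower quartiles of the arrays (5.64 to 5.67), so that the size of its fall is uncertain, and replicate 1 gave 1.84.

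Among 22 genes of spindle orientation and lumen polarity 1 rose and 1 fell, with a median of 0.01, against 4.20% and 3.09% of all named genes. At an unadjusted limma p under 0.05, 3 were higher and 3 lower, against 12.7% and 12.6%. PARD3, a polarity scaffold, rose at 1 of 4 probe sets (0.65, limma adjusted p = 0.0335), while in replicate 1 all 4 were lower in 3D, with differences from -2.44 to -0.50. PRKCI, an atypical protein kinase C, fell (-0.56, limma adjusted p = 0.0421) and was 0.66 lower in replicate 1. Of 22 cell cycle transcription factors and DREAM complex genes only E2F4, a repressing E2F, passed, lower in 3D (-0.83, limma adjusted p = 0.0288). That is 1 lower and 0 higher of 22, against 3.09% and 4.20% of all named genes. At an unadjusted limma p under 0.05, 2 were lower and 2 higher, against 12.6% and 12.7%. A second of the 4 E2F4 probe sets also fell (-0.66), and replicate 1 gave -0.41 at the brightest.

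The list of cell cycle exit and G1 regulators, with a median of -0.07, held the largest single differences among these lists. Of its 27 genes 3 rose and 2 fell, against 4.20% and 3.09% of all named genes, and 5 were higher and 9 lower at an unadjusted limma p under 0.05, against 12.7% and 12.6%. CDKN3, a phosphatase that acts on cyclin-dependent kinases, was at 7.41 and 7.47 in 2D and at 8.65 and 8.78 in 3D (1.28, SE 0.105, limma adjusted p = 0.00672). A second of its 4 probe sets rose too (1.33), the other two gave 0.63 and 0.08 without passing, and all 4 were higher in 3D in replicate 1, by 0.75 to 3.12. CDKN2C, an inhibitor of CDK4 and CDK6, rose on both probe sets (0.90 and 0.63), as did the unconventional cyclin gene CCNG2 (0.57 and 0.66), while replicate 1 gave 0.03 to 0.15 for these. GADD45B, a stress-response gene (-1.43, limma adjusted p = 0.00613), and KLF6, a zinc-finger factor (-1.17 and -1.13 on its 2 probe sets), fell, and each was lower in replicate 1 as well.

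DNA replication genes, which act in S phase just before mitosis, had a median of -0.21 on replicates 2 and 3 and -0.34 in replicate 1, with 3 of 41 lower and 0 higher, against 3.09% and 4.20% of all named genes. At an unadjusted limma p under 0.05, 14 were lower and 1 higher, against 12.6% and 12.7%. ORC2, a subunit of the origin recognition complex, fell at the brighter of its probe sets (-1.02, limma adjusted p = 0.0195) and was at 0.02 on the other. In replicate 1 these probe sets gave 0.07 and 2.70, neither lower in 3D. MCM10, which helps to start replication forks, fell by 0.63 (limma adjusted p = 0.0246) and was 0.82 lower in replicate 1, and CDC6, which loads the replicative helicase, fell by 0.85 (limma adjusted p = 0.0360). Both 3D arrays lay below both 2D arrays with a lower replicate 1 value for 20 of 41 replication genes, against 8 of 43 mitosis genes and 17.2% of all named genes. The difference between the lists was not tested.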

How the data were processed

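Log2 expression values, 1 for each array and probe set, came from the authors' deposited table of Affymetrix canine arrays, hybridized with biotin-labelled cRNA from 4 µg of Trizol-extracted RNA, per the labels' protocols. The submitters' processing notes name RMA (background correction, quantile normalization and probe summary) and limma, without versions. The log base was taken from the values. Neither a genome build nor the making of the replicate 1 columns, which lie on another scale, is stated in the labels or notes at hand.

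Of 43035 probe sets, 111 controls were left out. The platform annotation gave 1 symbol for 29254 probe sets and several for 439, none of which was used, and 13231 are unnamed here. The RefSeq table of UU_Cfam_GSD_1.0 held the Entrez identifiers of 27680 probe sets and updated 0 symbols. The highest mean over all 6 arrays, which chose a gene's probe set, mixes the scales but ignores the groups.

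Tests used lmFit and eBayes of limma 3.58.1 (R 4.3.3) on the 4 arrays of replicates 2 and 3, two-sided, with Benjamini-Hochberg adjustment over 42924 probe sets. Adjusted p under 0.05 passed, and dim probe sets were kept. The script was tested on simulated data. The number of arrays limits the precision. Alternatives were fits of all 6 arrays (as deposited or quantile normalized), median centring, a replicate block, other priors, a filter on dim probe sets, averaging the probe sets of each gene and leaving out each array. The count of genes below 0 was followed over these after seeing the data. Named genes were those with a passing probe set, ANLN, GPSM2 and NUMA1, the highest and lowest of each role group, and those with an unadjusted p under 0.05. Others are named as examples. From other lists, genes that passed were named. The members, lists and alternatives were chosen with earlier results of these data known. Plots were made with Python 3.11.15, pandas 2.3.3 and matplotlib 3.10.9.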

Additional observations from a re-analysis of the deposited data

How the results depend on the processing

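The count of 1 lower and 0 higher mitosis genes was unchanged with median centring, with trend and robust priors, without dim probe sets and after averaging the probe sets of each gene. It became 0 lower with all 6 arrays in 1 fit, as deposited or quantile normalized, and when any 1 of the 4 arrays was left out (0 to 0, the lone array of a culture being assumed to vary like the others). These settings left 0 of 42924 probe sets lower and 0 higher, except 0 and 2 for the quantile-normalized fit, against 1272 and 1565. An unadjusted p under 0.05 was then found for 105 and 1775 probe sets in the 6-array fits and for 4683 to 10892 with an array left out. With the replicate block on replicates 2 and 3 the counts were 0 mitosis genes lower and 0 probe sets lower and 0 higher, with 8325 at an unadjusted p under 0.05. With the replicate block on all 6 arrays they were also 0, 0 and 0, with 2723. The numbers were not taken to pair the samples: replicate 2 minus replicate 3 correlated at 0.00192 between 2D and 3D across named genes.

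The median difference of the mitosis genes stayed below 0 in every setting run. It was -0.15 as reported, with the block on replicates 2 and 3, with trend and robust priors, without dim probe sets and after averaging probe sets, -0.165 with median centring, -0.08 with all 6 arrays in 1 fit, with or without the block, -0.04 (-0.0439) quantile normalized, and -0.17 to -0.095 with an array left out. The median over all named genes was -0.01 as reported and -0.025 with median centring. It was -0.0567 with all 6 arrays in 1 fit, with or without the block, and -0.02 quantile normalized. In these 6-array fits the mitosis genes thus lay closer to all named genes than as reported. In replicate 1 the median of the mitosis genes was 0.17 with each array centred on its median, against 0.01. Single genes were followed over the settings only for the 22 mitosis genes named by the rule above, so that sign changes of others are not listed. Of the 22, NUMA1, GPSM2 and HMMR changed sign. NUMA1 gave -0.03 (-0.0267) with all 6 arrays in 1 fit, with or without the block, and -0.02 (-0.0156) quantile normalized. With an array left out it ran from -0.01 to 0.30. GPSM2 gave -0.13 as the mean of its probe sets and -0.08 to 0.15 with an array left out. HMMR ran from -0.665 to 0.025 with an array left out. The cause of these changes was not tested. The 22 named mitosis genes kept direction and side of the threshold in 248 of 264 values. Another 8 changed direction and 8 lost the ANLN call. ANLN was the only gene of these with a call to lose, and it lost it in 8 of 12 alternatives. The other named genes had not passed as reported, so that their staying on 1 side of the threshold is no measure of stability.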
